A study of Homo sapiens with 4 samples.

Results

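The genes that build and load small RNAs were followed in 4 libraries of human hepatocellular carcinoma cells. The set held 10 genes, picked by their symbols from the 18398 rows of the series, and all 10 were present. It comprised the Argonaute genes EIF2C1, EIF2C2, EIF2C3 and EIF2C4 (now named AGO1 to AGO4), the processing and loading genes DICER1 and TARBP2, the export gene XPO5, and the scaffold genes TNRC6A, TNRC6B and TNRC6C. The study asked what silencing of CDCA8, a gene of cell division, does to global gene expression. Huh1 and Huh7, established lines of hepatocellular carcinoma, were transfected with 15 nM siRNA in cationic lipid, and 48 h of treatment was studied. The 4 groups were Huh1 with NCsiRNA, Huh1 with CDCA8siRNA, Huh7 with NCsiRNA and Huh7 with CDCA8siRNA, with 1 library each. Every library came from transfected cells, NCsiRNA being a duplex without a target in human transcripts. The response to transfection itself was therefore not measured here. The CDCA8siRNA libraries used 1 of the paper's siRNAs against CDCA8. Effects of its sequence on other transcripts and effects of the loss of CDCA8 therefore cannot be told apart.

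Small RNAs silence transcripts through one shared machinery. Exportin-5, encoded by XPO5, carries microRNA precursors out of the nucleus, Dicer cuts them into short duplexes, and TRBP, encoded by TARBP2, helps to hand a duplex to an Argonaute protein. A synthetic siRNA duplex enters at the loading step, so the Argonautes that take up NCsiRNA and CDCA8siRNA are the same ones that hold the cell's own microRNAs. Of the human Argonautes, AGO2 is the one best known for cutting a fully matched transcript, while all of them work with the TNRC6 (GW182) proteins, which bring in deadenylases and decapping factors.

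The Argonaute genes EIF2C4, EIF2C1 and EIF2C3 lie in a row on chromosome 1 of GRCh38, all on the plus strand. The annotated gene EIF2C4 spans chr1:35808172-35857890, EIF2C1 spans chr1:35869808-35930528 and EIF2C3 spans chr1:35930718-36072500, and the transcripts matched to the files have 18, 19 and 19 exons. The gaps between them measured 11917 and 189 bases. XPO5 lies on the minus strand at chr6:43522330-43576075, its transcript having 32 exons, and starts 74 bases from the start of POLH, which runs the other way. TNRC6B spans chr22:40044817-40335808 on the plus strand, with 21 exons in its transcript. Sequence before the starts of EIF2C1, EIF2C4, XPO5 and TNRC6B is printed because EIF2C1 and EIF2C4 are neighbours that differed in opposite directions between the cell lines, TNRC6B showed the largest difference between the lines among the 10 genes, and XPO5 one of the 2 largest between the siRNAs in Huh7, with TNRC6B. Each run was taken from the RefSeq window of 250 bases before the gene's start (GRCh38.p14), reads 5′ to 3′ on the gene's strand, and holds the longest stretch outside every annotated exon, at chr1:35882959-35883208, chr1:35807766-35808015, chr6:43576076-43576149 and chr22:40044584-40044816 in that order. The EIF2C1 run lies inside the annotated gene, directly before the start of the matched transcript. Capitals mark matches to 6 motifs searched on both strands, which may overlap. The CCAAT box was written CCAAT, the GC box GGGCGG, the core of NRF1 sites TGCGCA, the core of ETS sites CCGGAAG, the core of the cyclic AMP response element TGACG and the core of E2F sites TTTNGCGC.
EIF2C1: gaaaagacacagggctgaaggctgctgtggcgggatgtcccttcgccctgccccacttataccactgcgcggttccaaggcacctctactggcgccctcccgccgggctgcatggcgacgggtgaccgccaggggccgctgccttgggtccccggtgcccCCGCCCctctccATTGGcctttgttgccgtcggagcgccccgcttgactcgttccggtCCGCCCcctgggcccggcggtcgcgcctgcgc
EIF2C4: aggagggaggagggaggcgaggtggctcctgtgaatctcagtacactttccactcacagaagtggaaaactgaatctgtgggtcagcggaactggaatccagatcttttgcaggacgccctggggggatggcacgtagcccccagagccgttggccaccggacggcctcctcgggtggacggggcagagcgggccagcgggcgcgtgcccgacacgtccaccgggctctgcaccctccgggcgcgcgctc
XPO5: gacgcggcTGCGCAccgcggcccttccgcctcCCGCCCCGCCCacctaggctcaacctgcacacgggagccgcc
TNRC6B: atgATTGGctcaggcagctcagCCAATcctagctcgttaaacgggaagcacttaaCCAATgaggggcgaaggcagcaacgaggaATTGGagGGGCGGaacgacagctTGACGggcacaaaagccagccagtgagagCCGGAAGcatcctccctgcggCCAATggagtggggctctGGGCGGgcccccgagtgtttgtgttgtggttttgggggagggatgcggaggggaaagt

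The EIF2C1 run of 250 bases held 1 CCAAT box and 2 GC boxes, and its G and C content was 71.6%. The EIF2C4 run, of the same length and with 66.4% G and C, held none of the 6 motifs. The 74 bases shared by the starts of XPO5 and POLH held 2 GC boxes, which overlap, and 1 NRF1 core. The TNRC6B run of 233 bases held 5 CCAAT boxes, 2 GC boxes, 1 ETS core and 1 core of the cyclic AMP response element. Among 35116 RefSeq windows of 250 bases, 32.0% held a CCAAT box, 42.6% a GC box, 6.89% an NRF1 core, 8.52% an ETS core, 21.2% the core of the cyclic AMP response element and 1.51% an E2F core, and the median G and C content was 58.0%. The XPO5 and TNRC6B runs are shorter than these windows, so their counts and the shares are for unlike lengths. The full XPO5 window of 250 bases held 2 NRF1 cores and 1 core of the cyclic AMP response element. That of TNRC6B held the same motif counts as its run. These matches describe the letters only, and binding was not measured.

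Expression was given as RPKM, the reads of a gene divided by its transcript length and the library depth. Values of different genes can be set side by side only as far as the assigned lengths are right. The depth was read from the genes at the value of 1 read, 115 to 126 per library, and corresponded to 12197606 to 13384836 reads. With annotated transcript lengths, 9.51% to 10.8% of the low values per library came out as whole reads within 0.0001 read. The lengths the authors used, or their way of counting, thus often differed from what was assumed here, and which of these it was cannot be told. CDCA8, the targeted gene, was at 24.1 RPKM with NCsiRNA and 5.86 with CDCA8siRNA in Huh1, and at 51.5 and 7.36 RPKM in Huh7, so the knockdown followed the labels in both lines. All 8 hepatocyte lineage markers were measured in every library, ALB between 721 and 3447 RPKM. Their summed level was 5037 RPKM with NCsiRNA and 3872 with CDCA8siRNA in Huh1, and 3113 and 2171.3 in Huh7. For the siRNA limma called 6 of the 8 lower at an adjusted p under 0.05, where 322 of all 12148 genes were called lower. AFP and TTR were not called for the siRNA. For the cell line these 2 were called higher in Huh7 and 6 were called lower. AFP was at 24.8 and 27.5 RPKM in Huh1 and at 865 and 715 in Huh7. TTR was at 5.10 and 4.49 RPKM in Huh1 and at 29.3 and 48.5 in Huh7. Of the fibroblast markers, COL1A1 was at 107 and 125 RPKM in Huh7 against 0.115 and 0.122 in Huh1, and the list of 5 summed to 12.1 RPKM with NCsiRNA and 25.8 with CDCA8siRNA in Huh1, and to 283 and 377 in Huh7. The leukocyte list of 4, nearly all of it LYZ in Huh7, summed to 1.08 and 2.28 RPKM in Huh1 and to 11.4 and 24.1 in Huh7. limma called 1 gene of each list higher with CDCA8siRNA, LUM (adjusted p = 0.023) and LYZ (adjusted p = 0.022), while PTPRC stayed at or below 0.417 RPKM. Of the endothelial genes, CDH5 was listed at 0 throughout. The part of these markers in the values that follow was not tested.

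All 10 machinery genes reached 1 RPKM in at least 1 library and were kept by the filter used for every comparison. TNRC6C was at 0.866 RPKM in Huh1 with NCsiRNA, so comparisons with that library kept it only through the other, higher library. Their median level was 11.8 RPKM in Huh1 with NCsiRNA, 13.1 in Huh1 with CDCA8siRNA, 11.96 in Huh7 with NCsiRNA and 10.5 in Huh7 with CDCA8siRNA. The median over all genes at or above 1 RPKM was 12.2 to 12.4 RPKM, so the set sat in the middle of the expressed genes. XPO5 was the highest of the 10 in 3 libraries and TNRC6A in the fourth, Huh7 with CDCA8siRNA. TNRC6C, the lowest in every library, was between 0.866 and 1.42 RPKM. From the highest to the lowest in Huh1 with NCsiRNA the order was XPO5, TARBP2, EIF2C1, TNRC6A, DICER1, EIF2C2, EIF2C3, TNRC6B, EIF2C4 and TNRC6C. In Huh7 with NCsiRNA it was XPO5, TNRC6A, TARBP2, DICER1, EIF2C2, EIF2C1, TNRC6B, EIF2C3, EIF2C4 and TNRC6C. Of the 9 pairs of neighbours in each order, 2 had overlapping 95% Poisson intervals in Huh1 with NCsiRNA (EIF2C1 with TNRC6A, TNRC6B with EIF2C4). In Huh7 with NCsiRNA there were 5: TNRC6A with TARBP2, TARBP2 with DICER1, EIF2C2 with EIF2C1, TNRC6B with EIF2C3, and EIF2C3 with EIF2C4. The intervals here and in what follows cover counting error only, since PCR copies are not independent molecules and no condition was repeated. The order also depends on the transcript length that the authors assigned to each gene, which the intervals leave out. The intervals rest on a number of reads computed from the coding length alone. This is the fewest that the RPKM allows if the authors' length covered the coding sequence. In that case the intervals are wide rather than narrow.

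**Figure D1:**
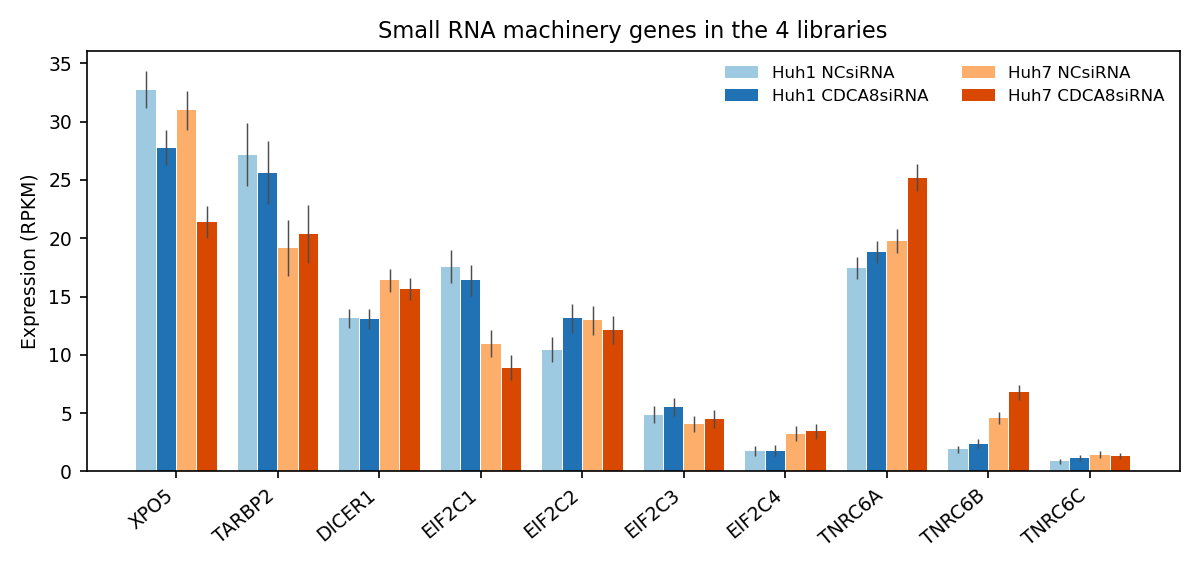
Expression of the 10 small RNA machinery genes, in RPKM on the vertical axis from 0, in the 4 libraries (bars, 1 library each). Lines show the 95% counting interval by a normal approximation. XPO5 reached 32.8 RPKM and TNRC6C never exceeded 1.42 RPKM. EIF2C1 and TARBP2 were lower and EIF2C4 and TNRC6B higher in both Huh7 libraries than in both Huh1 libraries.

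Of the 4 Argonautes, which hold the guide strand, EIF2C1 and EIF2C2 were the abundant pair in every library. EIF2C1 was at 17.6 RPKM in Huh1 with NCsiRNA, 16.4 in Huh1 with CDCA8siRNA, 10.97 in Huh7 with NCsiRNA and 8.91 in Huh7 with CDCA8siRNA. Both Huh1 values were above both Huh7 values. EIF2C2, which encodes the slicing Argonaute, was at 10.4, 13.1, 12.95 and 12.1 RPKM in the same order of libraries. Here the Huh1 library with NCsiRNA was the low one, and the ranges of the lines overlapped. EIF2C3 was at 4.86, 5.49, 4.05 and 4.50 RPKM, with the Huh7 values the lower pair. EIF2C4 was at 1.76, 1.77, 3.22 and 3.44 RPKM, the Huh7 pair being the higher one. The EIF2C4 values rested on at least 60 reads per library and the EIF2C1 values on at least 281.

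Summed over the family, Argonaute expression was 34.6 RPKM in Huh1 with NCsiRNA, 36.8 in Huh1 with CDCA8siRNA, 31.2 in Huh7 with NCsiRNA and 28.97 in Huh7 with CDCA8siRNA. EIF2C1 was the leading Argonaute in Huh1, with 50.8% ± 2.9 of the sum with NCsiRNA and 44.6% ± 2.8 with CDCA8siRNA (± from the exact 95% binomial interval). In Huh7 its share was 35.2% ± 3.0 and 30.7% ± 3.0. EIF2C2 led in Huh7, with 41.5% ± 3.1 under NCsiRNA and 41.9% ± 3.2 under CDCA8siRNA, against 30.1% ± 2.6 and 35.7% ± 2.7 in Huh1. In Huh7 the 95% Poisson intervals of the EIF2C2 and EIF2C1 levels overlapped with NCsiRNA but not with CDCA8siRNA. The ratio of EIF2C2 to EIF2C1 was 0.593 and 0.801 in Huh1 and 1.18 and 1.36 in Huh7. EIF2C4 held 5.07% ± 1.3 and 4.81% ± 1.2 of the sum in Huh1 and 10.3% ± 2.0 and 11.9% ± 2.2 in Huh7. EIF2C3 stayed between 12.98% and 15.5%. The shares depend on the transcript length that the authors assigned to each paralog, whereas the change of a share between libraries depends on it less.

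The precursor enzyme and its partners were expressed at moderate levels. DICER1 was at 13.1 RPKM in both Huh1 libraries, at 16.4 in Huh7 with NCsiRNA and at 15.7 in Huh7 with CDCA8siRNA. TARBP2 was at 27.2, 25.6, 19.2 and 20.4 RPKM, so the direction between the lines was opposite to that of DICER1. The ratio of TARBP2 to DICER1 was accordingly 2.07 and 1.96 in Huh1 and 1.17 and 1.30 in Huh7. XPO5 was at 32.8 and 27.8 RPKM in Huh1 and at 30.97 and 21.4 RPKM in Huh7, the CDCA8siRNA library being the low one in each line. XPO5 overlaps POLR1C, on the opposite strand, over 40090 bases, and whether counting used strand is not given in the sources used here. POLR1C was at 28.4, 26.2, 30.8 and 25.9 RPKM, and reads from exons that overlap cannot be told apart. POLH, on the other side of the shared start, was at 3.39, 3.87, 4.61 and 5.21 RPKM, higher with CDCA8siRNA in both lines. These neighbours were looked up after the value of XPO5 had been seen.

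Of the TNRC6 scaffolds, which link Argonaute to the decay enzymes, TNRC6A was by far the most abundant. It was at 17.4 and 18.8 RPKM in Huh1 and at 19.8 and 25.2 RPKM in Huh7. TNRC6B was at 1.88 and 2.37 RPKM in Huh1 and at 4.60 and 6.79 RPKM in Huh7, which put the line ranges well apart. TNRC6C was at 0.866 and 1.17 RPKM in Huh1 and at 1.42 and 1.30 RPKM in Huh7. TNRC6A made up 86.4% ± 1.6 and 84.2% ± 1.7 of the family's summed RPKM in Huh1 and 76.6% ± 1.9 and 75.7% ± 1.7 in Huh7. The share of TNRC6B was 9.31% ± 1.4 and 10.6% ± 1.4 in Huh1, and 17.8% ± 1.7 and 20.4% ± 1.6 in Huh7. TNRC6A thus exceeded TNRC6B by 9.28 and 7.94 times in Huh1 and by 4.30 and 3.71 times in Huh7. When RPKM was multiplied by the annotated transcript length, which is long for TNRC6B, its share with NCsiRNA was 17.8% in Huh1 and 31.4% in Huh7, which may rest on a length other than the one the authors used. The family sum was 20.2, 22.4, 25.8 and 33.3 RPKM in the order of libraries used above.

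**Figure D2:**
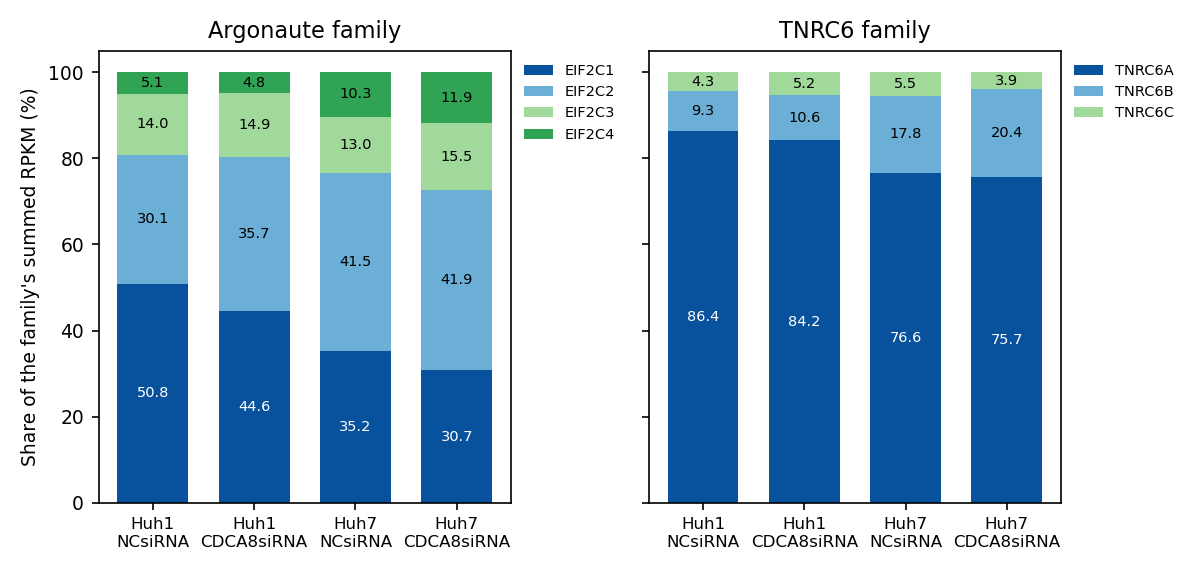
Share of each paralog in the summed RPKM of its family, in percent on the vertical axis from 0, for the 4 libraries, with the Argonaute genes on the left and the TNRC6 genes on the right. EIF2C1 was the largest share in both Huh1 libraries and EIF2C2 in both Huh7 libraries, and TNRC6B held 9.31% and 10.6% in Huh1 against 17.8% and 20.4% in Huh7.

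The comparison of CDCA8siRNA with NCsiRNA asked whether the machinery that carries the siRNA changed along with the target. Differences were taken on the log2(RPKM + 1) scale, where the added 1 shrinks the difference of a gene at a low level. A second, smaller limit was set at 25% higher or 20% lower on that scale. In Huh1, 0 of the 10 genes differed by 2-fold, where 0.494% of the 10940 genes compared did, and 0 of 10 passed the smaller limit, which 17.8% of all genes passed. In Huh7, 0 of 10 differed by 2-fold and 3 of 10 passed the smaller limit, against 1.57% and 28.2% of 11565 genes. The share of 3 in 10 was near that background. The median size of the difference, regardless of sign, was 0.12 for the 10 genes and 0.14 for all genes in Huh1, and 0.11 and 0.19 in Huh7. The 3 genes past the smaller limit in Huh7 were XPO5, which was lower, and TNRC6A and TNRC6B, which were higher. With 1 library per condition no test within a line was possible.

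XPO5 and TNRC6B differed most in Huh7, and which of them came first depended on the pseudocount, while EIF2C2 differed most in Huh1 on the log2(RPKM + 1) scale, by 0.31. With CDCA8siRNA XPO5 was at 69.1% of the control value in Huh7, with a counting interval of the ratio from 0.635 to 0.751, and at 84.8% in Huh1, with an interval from 0.788 to 0.913. The log2 differences were -0.51 and -0.23, each with a counting SD under 0.06. TNRC6B was 1.48 times its control value in Huh7 (interval 1.27 to 1.72) and 1.26 times in Huh1, where the interval of 0.997 to 1.60 reached 1. TNRC6A was 1.27 times its control value in Huh7 (interval 1.19 to 1.37) and 1.08 times in Huh1 (interval 1.00 to 1.16). EIF2C1 was at 81.2% in Huh7 (interval 0.691 to 0.954) and at 93.2% in Huh1 (interval 0.829 to 1.05). Of the 10 genes, 7 lay on the same side of their controls in both lines. Of these 7, 6 lay farther out in Huh7, EIF2C3 being the exception. The share of all genes with this pattern was not computed. Over all genes the median size of the difference was also larger in Huh7, 0.19 against 0.14 in Huh1. Among the 7, EIF2C4 differed by less than its counting SD in both lines. CDCA8 itself was at 14.3% of its control value in Huh7 and 24.3% in Huh1, and its part in these values was not tested.

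EIF2C2, by contrast, was 1.26 times its control value in Huh1 (interval 1.09 to 1.45) and 0.937 times in Huh7 (interval 0.814 to 1.08). The difference in response, Huh7 minus Huh1, was -0.39 on the log2 scale with a counting SD of 0.13. DICER1 was at 99.4% in Huh1 (interval 0.908 to 1.09) and 95.7% in Huh7 (interval 0.879 to 1.04), and in each line its interval excluded the ratio that XPO5 showed there. TARBP2 was at 94.3% and 106% (intervals 0.812 to 1.09 and 0.890 to 1.27). EIF2C3 was at 113% and 111%, and EIF2C4 at 101% and 107%, with a sign that turned under quantile normalization. TNRC6C was at 135% and 91.4%, and every one of these intervals included 1. In Huh1 TNRC6C passed the filter only through the CDCA8siRNA library, where it was higher. For EIF2C4 and TNRC6C, with at least 60 and 59 reads in the lowest library, a difference of the size seen for XPO5 in Huh1 was not detectable at this depth.

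The only test of the siRNA effect came from limma over all 4 libraries, with a term for the line, and its residual is the difference in response between the lines and not the spread of repeated transfections, so its adjusted p-values may be too small. It called 0 of the 10 genes at a Benjamini-Hochberg adjusted p under 0.05, where 6.39% of 12148 genes were called, and 2 of 10 had an unadjusted p under 0.05, against 22.8% of all genes. XPO5 came closest, lower by 0.37 ± 0.10 (log2, SE) with a limma adjusted p of 0.074 and lower in 2 of 2 lines. After quantile normalization its adjusted p was 0.027, and over 7 alternative settings it ranged from 0.027 to 1.00. TNRC6B was higher by 0.35 ± 0.13 (limma adjusted p = 0.17), TNRC6A by 0.22 ± 0.10 (limma adjusted p = 0.26), and EIF2C1 was lower by 0.18 ± 0.11 (limma adjusted p = 0.35). The adjusted p of the other 6 genes was between 0.55 and 0.99. For comparison, CDCA8 was lower by 2.26 ± 0.17 (limma adjusted p = 0.0019).

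**Figure D3:**
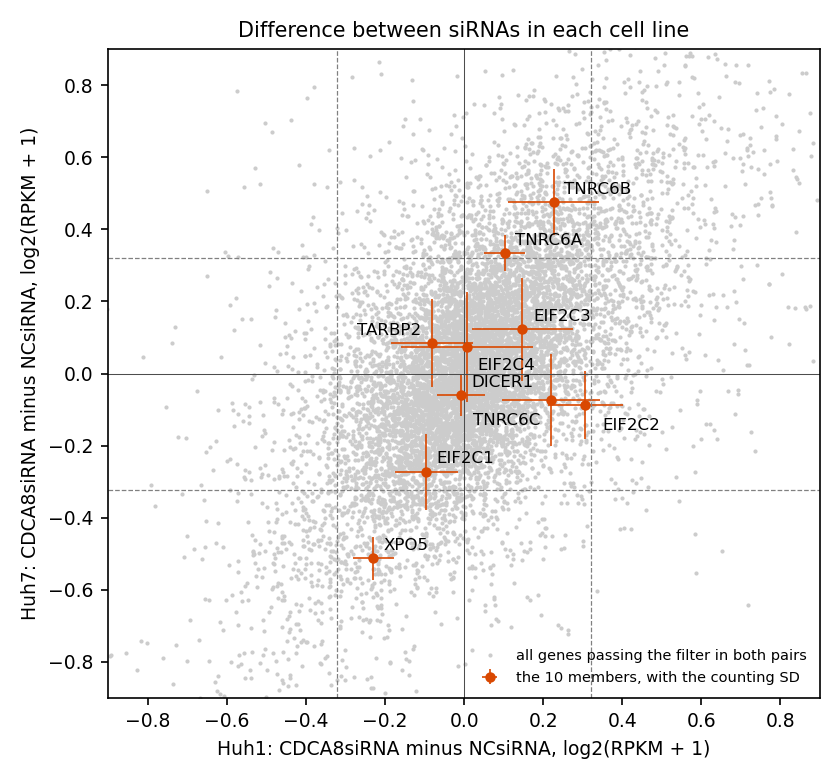
Difference of log2(RPKM + 1) between CDCA8siRNA and NCsiRNA in Huh1 (horizontal axis) and in Huh7 (vertical axis), with all genes in grey, the 10 machinery genes in orange with their counting SD, and dashed lines at 25% higher or 20% lower. Points outside the axes are not drawn. XPO5 lay below the lower line in Huh7, TNRC6A and TNRC6B above the upper one, and no member passed a dashed line in Huh1.

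The cell lines differed from each other far more than the siRNAs did. By median size the 10 genes also differed more between lines than between siRNAs, but less between lines than all genes did. Over all genes the median difference, Huh7 minus Huh1, was 0.14 on the log2 scale with either siRNA, so a gene that follows the bulk has a value near 0.14 and not 0. With NCsiRNA, 0 of the 10 genes differed by 2-fold, against 27.2% of 11896 genes, and 3 of 10 by 1.5-fold, against 47.7%. With CDCA8siRNA, 1 of 10 differed by 2-fold, against 27.5% of 12005 genes, and 3 of 10 by 1.5-fold, against 47.8%. The 3 genes were EIF2C1, EIF2C4 and TNRC6B with either siRNA. The median size of the difference was 0.34 for the 10 genes under each siRNA, and 0.55 and 0.56 for all genes. In bulk RNA, a gene used more by every cell and a culture with more cells that use it cannot be told apart.

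limma called 6 of the 10 genes for the cell line at an adjusted p under 0.05, where 71.2% of the 12148 genes were called. In this fit the NCsiRNA and CDCA8siRNA libraries of a line stood in for repeats, and the residual was the same as for the siRNA. The adjusted p-values for the cell line may therefore also be too small. TNRC6B was higher in Huh7 by 1.08 ± 0.13 (log2, SE) with a limma adjusted p of 0.00011, and its RPKM was 2.45 times that of Huh1 with NCsiRNA (interval 1.98 to 3.03) and 2.86 times with CDCA8siRNA (interval 2.38 to 3.44). EIF2C4 was higher by 0.65 ± 0.14 (limma adjusted p = 0.0028), at 1.83 times the Huh1 RPKM (interval 1.31 to 2.54) and 1.94 times (interval 1.41 to 2.72). EIF2C1 was lower by 0.72 ± 0.11 (limma adjusted p = 0.00031), at 62.4% of the Huh1 RPKM with NCsiRNA and 54.4% with CDCA8siRNA. Its neighbour EIF2C3, which starts 189 bases past its end, was lower by 0.23 ± 0.12 and was not called (limma adjusted p = 0.12). The row of Argonaute genes on chromosome 1 thus held 1 gene that was higher in Huh7, 1 that was lower and 1 that was not called.

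TARBP2 was lower in Huh7 by 0.40 ± 0.10 (limma adjusted p = 0.0061), at 70.5% and 79.5% of the Huh1 RPKM. DICER1 was higher by 0.27 ± 0.10 (limma adjusted p = 0.037) and TNRC6A by 0.29 ± 0.10 (limma adjusted p = 0.035). Both of these calls were weak, since each was kept in only 2 of 7 alternative settings, and after quantile normalization, which sets the median of all genes to about 0, the values were 0.17 for DICER1 and 0.20 for TNRC6A with adjusted p of 0.18 and 0.11. XPO5 was lower by 0.22 ± 0.10 (limma adjusted p = 0.089), and it was called after quantile normalization (adjusted p = 0.016) and after upper quartile scaling (adjusted p = 0.037). EIF2C3 was called after quantile normalization alone (adjusted p = 0.0073). EIF2C2, with 0.09 ± 0.12 (limma adjusted p = 0.52), and TNRC6C, with 0.23 ± 0.17 (limma adjusted p = 0.25), were called under no setting, and quantile normalization turned the sign of both. EIF2C1 and TNRC6B were called in all 7 alternatives run.

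**Figure D4:**
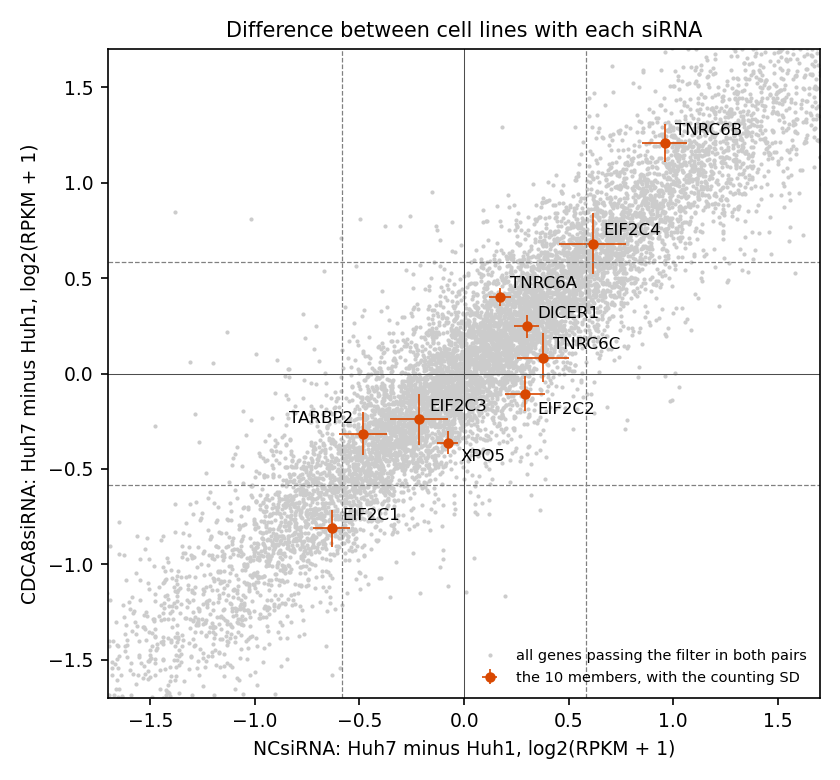
Difference of log2(RPKM + 1) between Huh7 and Huh1 with NCsiRNA (horizontal axis) and with CDCA8siRNA (vertical axis), with all genes in grey, the 10 machinery genes in orange with their counting SD, and dashed lines at 1.5-fold. Points outside the axes are not drawn. TNRC6B and EIF2C4 lay past the upper lines and EIF2C1 past the lower lines with both siRNAs, and EIF2C2 was above 0 with NCsiRNA and below 0 with CDCA8siRNA.

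The wider pathway was described with 7 lists of 70 genes in all, 69 of them in the files and 65 tested. limma called 5 of the 65 for the siRNA, 2 higher and 3 lower with CDCA8siRNA, a share near the 6.39% of all genes tested. Without a filter, without a trend or without the line term none of these 5 was called, and JUB was not called with a pseudocount of 0.1 RPKM either. For primary miRNA processing and export 0 of 5 genes tested were called, for Dicer partners and passenger strand removal 0 of 3, and for miRNA end modification and let-7 control 0 of 9. In the last list LIN28B was higher in both lines (limma adjusted p = 0.054) and PAPD4 lower in both (limma adjusted p = 0.056). Both are given here after their values were seen. Of the chaperones of the Hsp70 and Hsp90 systems, which open an empty Argonaute for a duplex, 1 of 13 was called. That gene was FKBP4, an Hsp90 co-chaperone, at 54.2 RPKM in Huh1 with NCsiRNA, 19.6 in Huh1 with CDCA8siRNA, 54.5 in Huh7 with NCsiRNA and 8.32 in Huh7 with CDCA8siRNA. It fell by 2.00 on the log2 scale (limma adjusted p = 0.0032), and was the only one of the 69 genes past 2-fold in both lines. HSP90AA1, HSP90AB1 and HSPA8, the abundant chaperones of the list, were not called for the siRNA (limma adjusted p = 0.50, 0.060 and 0.54). HSP90AB1 was lower with CDCA8siRNA in both lines.

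Among the 23 genes of deadenylation, decapping and decay, the effectors that TNRC6 proteins recruit, 3 were called for the siRNA, where 6.39% of all genes were. EDC4, a scaffold of the decapping complex, was at 21.2 and 14.2 RPKM in Huh1 and at 29.1 and 13.5 RPKM in Huh7, and fell by 0.80 (limma adjusted p = 0.014). DCP1A, a cofactor of the decapping enzyme, was at 8.52 and 5.34 RPKM in Huh1 and at 7.42 and 4.50 RPKM in Huh7, and fell by 0.60 (limma adjusted p = 0.022). DCP2, the decapping enzyme itself, was at 7.80 and 11.7 RPKM in Huh1 and at 8.34 and 12.5 RPKM in Huh7, and rose by 0.53 (limma adjusted p = 0.026). Other decapping factors of the list were not called, among them EDC3, at 18.6 and 22.1 RPKM in Huh1 and at 21.3 and 31.5 RPKM in Huh7 (limma adjusted p = 0.072), which was named after its values were seen. Of the 12 Argonaute partners, 1 was called: JUB, which encodes the LIM protein AJUBA, was at 31.4 and 47.1 RPKM in Huh1 and at 99.5 and 120 RPKM in Huh7, and rose by 0.42 (limma adjusted p = 0.044). The median siRNA effect of these lists lay between -0.13 and 0.02, against 0.03 over all genes.

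**Figure D5:**
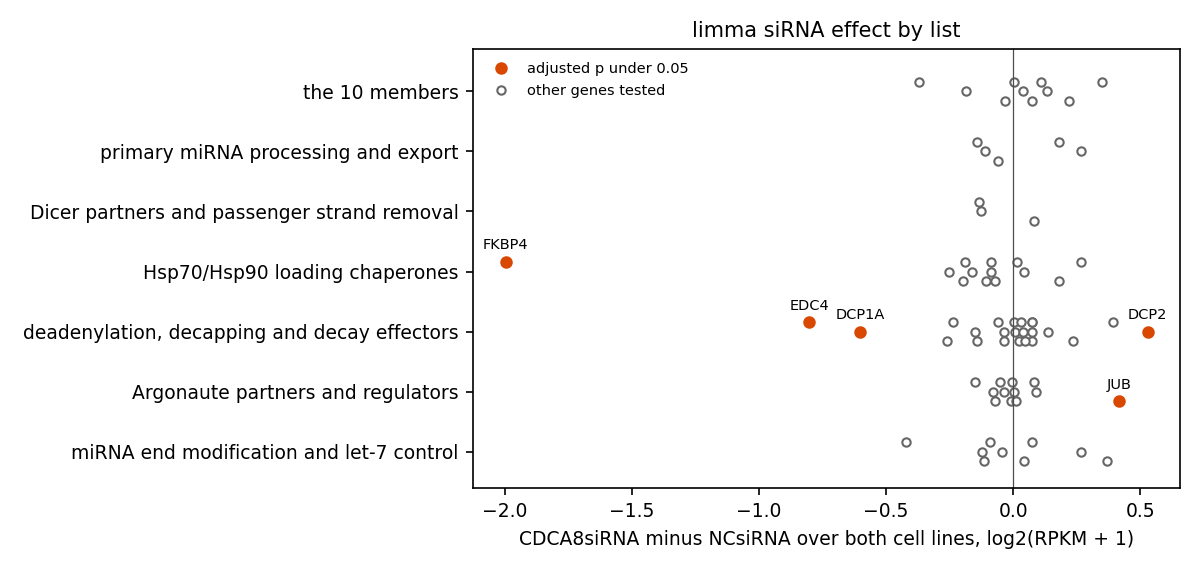
limma siRNA effect over both cell lines, CDCA8siRNA minus NCsiRNA on the log2(RPKM + 1) scale (horizontal axis), for each gene tested (points, shifted vertically for legibility) of the 10 members and of 6 pathway lists, with filled points for an adjusted p under 0.05. FKBP4 lay farthest out at -2.00, EDC4 and DCP1A were the other called genes below 0, and no member was called.

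For the cell line, 44 of the 65 tested pathway genes were called, 27 higher and 17 lower in Huh7, a share near that of all genes. DGCR8, the RNA-binding partner of Drosha, was at 10.7 and 9.98 RPKM in Huh1 and at 40.2 and 35.2 RPKM in Huh7. LIN28B, which blocks maturation of let-7, was at 15.8 and 19.97 RPKM in Huh1 and at 50.1 and 67.2 RPKM in Huh7. Its relative LIN28A was at 0.169 and 0.199 RPKM in Huh1 against 19.5 and 20.3 RPKM in Huh7, and the RNA editing enzyme gene ADARB1 at 0.0443 and 0.0219 RPKM against 4.79 and 4.04 RPKM. The let-7 target TRIM71, which encodes a ubiquitin ligase tied to Argonaute, was at 2.93 and 2.84 RPKM in Huh1 and at 9.65 and 10.1 RPKM in Huh7. DCP1B (0.714 and 1.23 against 4.78 and 5.15 RPKM), C2orf29 of the CCR4-NOT complex (20.8 and 19.5 against 59.0 and 44.8 RPKM) and WTIP (0.0339 and 0 against 2.16 and 2.70 RPKM) were also more than 2-fold higher in Huh7 with either siRNA, as was JUB. These 9 genes were named for their size of difference. LIN28A, ADARB1 and WTIP passed the filter only through the Huh7 libraries, as did DCP1B in the comparison with NCsiRNA. Of the PIWI branch of the Argonaute family, which works in the germ line, none of the 4 genes exceeded 0.443 RPKM, and none was tested.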

How the data were processed

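RNA of 4 libraries, 1 per cell line and siRNA, was prepared with an Illumina TruSeq RNA kit per the labels. The submitters' processing notes name CASAVA 1.8.2, TopHat2 2.0.9 and hg19. The files deposited by the authors hold an RPKM value for 18398 RefSeq transcripts in every library, and the counting tool is not given in the sources used here. The unit follows from the values. The siRNA dose is from the study's methods and the time from its description of the sequencing result.

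Genes with at least 1 RPKM in a compared library were kept, and differences were taken on log2(RPKM + 1). limma 3.58.1 in R 4.3.3 (lmFit, eBayes with trend) was fitted to all genes over 4 libraries with cell line and siRNA, with 1 residual degree of freedom and Benjamini-Hochberg adjustment. A further 7.48 degrees of freedom were borrowed from the spread over all genes. Simulated libraries held 2-fold changes, equal in both lines, in genes at 5 RPKM or more in every library. There this fit recovered changed genes but called more unchanged genes than the adjusted p states, so adjusted p-values may be too small. Smaller changes, such as those of the members, were not simulated, so how well the fit finds them is not known. Intervals (95%) were exact binomial or Poisson, from Python 3.11.15 with scipy 1.17.1. Only the lines drawn on the bars of expression used a normal approximation. Transcripts, exons and coding lengths were from GENCODE release 29.

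The members and lists were chosen with earlier results of these data known. Named genes were the 10 members, CDCA8, list genes called for the siRNA by limma or 2-fold in both lines (up to 5 per list), and list genes past 2-fold between lines with either siRNA (up to 3 per list). Alternatives were a pseudocount of 0.1 RPKM, no filter, a minimum of 5 RPKM, quantile normalization, upper quartile scaling, eBayes without a trend, and fits without each covariate.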

Additional observations from a re-analysis of the deposited data

Results flagged for a closer look

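The values below stood out because samples of one group went one way and samples of the other the opposite way. None of these differences was tested, since each rests on single libraries. EIF2C2 was higher with CDCA8siRNA in Huh1 and lower in Huh7, with Huh7 minus Huh1 at -0.39 (log2, counting SD 0.13). EIF2C2 was also higher in Huh7 than in Huh1 with NCsiRNA, by 0.29, and lower with CDCA8siRNA, at -0.10; both contrasts share the same 4 values. TNRC6C was higher with CDCA8siRNA in Huh1 and lower in Huh7, with Huh7 minus Huh1 at -0.29 (counting SD 0.18). In Huh1 TNRC6C passed the filter only through the CDCA8siRNA library, the higher one. TARBP2 was lower with CDCA8siRNA in Huh1 and higher in Huh7, with Huh7 minus Huh1 at 0.17 (counting SD 0.16).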

How the results depend on the processing

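The line term pairs the libraries of a line, so the fit without it is the unpaired one. No replicate block was possible because each condition had 1 library, and leaving out a library left no residual degrees of freedom. With a pseudocount of 0.1 RPKM, the genes past 2-fold between siRNAs numbered 164 in Huh1 and 422 in Huh7 in place of 54 and 182. In Huh1, 2 members (EIF2C2 and TNRC6C) then passed the limit of 25% higher or 20% lower in place of 0. TNRC6C entered that comparison only through the CDCA8siRNA library, where it was higher. With a minimum of 5 RPKM, 1 member passed 1.5-fold between the lines with NCsiRNA in place of 3, because EIF2C4 and TNRC6B were no longer compared. Without a filter, limma called 0 genes for the siRNA in place of 776, and 5433 genes with 2 members (EIF2C1 and TNRC6B) for the cell line in place of 8654 with 6. Genes called for the siRNA numbered 1260 with 1 member, XPO5, after quantile normalization, 45 without a trend and 0 without the cell line covariate; the cause was not tested. Quantile normalization reversed values that were not called: for the siRNA, EIF2C4 at -0.040, TARBP2 at -0.014 and TNRC6C at -0.0044; for the cell line, EIF2C2 at -0.018 and TNRC6C at -0.12. It moved the median line difference of all genes from 0.14 to about 0 and, with NCsiRNA, the higher share of genes past 2-fold from 62.6% to 52.2%. By estimated reads, the TNRC6B share was 17.8% in Huh1 and 31.4% in Huh7 with NCsiRNA in place of 9.31% and 17.8%, which depends on the annotated length. The EIF2C2 shares and the other counts moved by less than their limits.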
